A study of Mus musculus with 8 samples.

Results

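The genes described here are the receptors through which vascular endothelial growth factors act on vessels, Kdr, Flt1, Nrp1 and Nrp2, the ligand Vegfb, the angiopoietins Angpt1 and Angpt2, and the Tie receptors Tek and Tie1. They were chosen by symbol and not by a rule on their values. They and the gene lists used below were chosen with earlier results of these data known. All 9 were among the 55385 genes counted and among the 21859 tested. They were measured by bulk mRNA-seq of whole lungs from C57BL/6 mouse fetuses at E18.5, with 4 control lungs and 4 lungs after tracheal occlusion (TO), called control 1 to 4 and TO 1 to 4. In the TO fetuses a ligature placed through the uterine wall closed the trachea together with one carotid artery and one jugular vein, so the groups differ by all of these, and what was done to the control fetuses is not given in the sources used here. Both groups share the strain and the age, and no allele or agent is named in the labels. The study's mouse methods do name an agent, progesterone, injected between ligation and collection to prevent loss of the pregnancy. Whether this also held for the controls is not given there.

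VEGF receptors are tyrosine kinases of endothelial cells. Kdr (VEGF receptor 2) carries most of the growth signal, while Flt1 (VEGF receptor 1) binds ligand tightly and, in its soluble form, holds it away from Kdr. The neuropilins Nrp1 and Nrp2 are coreceptors shared between VEGF and class 3 semaphorins, with Nrp2 also found on veins and lymphatic vessels. Angpt1, made by pericytes and other mesenchymal cells, activates the receptor Tek (Tie2) and keeps vessels quiet and tight. Angpt2, made by endothelial cells at sites of vessel remodelling, competes with Angpt1 for Tek in many settings. Tie1 is a related receptor with no well established ligand of its own, which pairs with Tek. In the late fetal lung these signals accompany the spread of the capillary bed around the future air spaces.

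TO 1 was shallow, with 270078 read pairs on genes, where the other 7 libraries had 22822261 to 35002061. In TO 1, 3 read pairs came to 11.1 CPM (read pairs of a gene relative to the library's total, scaled by TMM), and the 9 genes had 6 to 62 read pairs there. The test results given first rest on 6 libraries, controls 1, 2 and 4 and TO 2, 3 and 4, which are those in the study's heat map. Control 3 and TO 1 were added as alternatives. The last 4 digits of the specimen names divide the libraries as 3482 (controls 1 and 4, TO 1 and 4), 3573 (control 2 and TO 2) and 3604 (control 3 and TO 3). What the digits mark is not given in the sources used here.

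No gene of the 21859 passed an adjusted p of 0.1 in edgeR's quasi-likelihood test of TO against control, the smallest adjusted p being 0.372, and 1123 genes (5.14%) had an unadjusted p under 0.05. With DESeq2 44 genes passed (0.201%), and with limma-voom none (1361 genes had an unadjusted p under 0.05). With a block by replicate number 219 passed in the 6 libraries (1%), in which only numbers 2 and 4 form pairs, and 3 in all 8 (0.0133%). Without TO 4 144 genes passed (0.692%) and without control 4 52 (0.247%). None of the 9 genes passed in any of these fits. Lung and endothelial identity was plain in each library: the epithelial surfactant gene Sftpc stood at 4431 to 12790 CPM and the endothelial cadherin Cdh5 at 356 to 634 CPM.

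Upstream sequence is shown for Flt1 and Tek as 2 genes that were, respectively, higher and lower in the pair of lungs whose specimen names end in 3604 than in the other deep libraries, a contrast described further on. Angpt2 was also higher there and Tie1 also lower, but Angpt2 had no window in the table used, and that of Tie1, which held the most matches, runs into the gene as GENCODE M21 annotates it and is not printed. Each run holds the 250 bases before the RefSeq transcription start on GRCm38.p6, read 5′ to 3′ on the gene's strand. Capitals mark the ETS core GGAA or its complement TTCC, the short core bound by ETS factors, a family that includes the endothelial factor Erg.
Flt1, chr5:147726012-147726261, minus strand: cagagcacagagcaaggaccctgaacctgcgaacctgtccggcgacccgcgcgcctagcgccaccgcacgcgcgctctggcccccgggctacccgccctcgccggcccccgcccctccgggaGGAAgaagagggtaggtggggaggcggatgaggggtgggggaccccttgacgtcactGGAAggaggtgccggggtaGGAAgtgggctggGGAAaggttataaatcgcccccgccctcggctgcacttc
Tek, chr4:94739039-94739288, plus strand: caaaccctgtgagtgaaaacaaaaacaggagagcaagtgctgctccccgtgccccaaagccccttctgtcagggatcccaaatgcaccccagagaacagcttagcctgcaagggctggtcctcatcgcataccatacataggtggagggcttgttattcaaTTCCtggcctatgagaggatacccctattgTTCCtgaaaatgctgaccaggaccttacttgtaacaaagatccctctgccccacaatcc
The table used held such windows for 7 of the 9 genes, all but Angpt1 and Angpt2. The core occurred 4 times in the windows of Kdr, Flt1 and Nrp1, 7 times in that of Tie1, 2 times in that of Tek and 1 time in those of Nrp2 and Vegfb. Like that of Tie1, the windows of Kdr and Nrp2 run into the gene as GENCODE M21 annotates it, and that of Nrp1 lies wholly within it. Over 32851 mouse promoter windows of the same length 93.4% held the core at least 1 time and the median was 3. At least 4 matches were found in 33.4% of windows and at least 7 in 3.82%. The Flt1 window was also richer in G and C (70.4%) than the Tek window (51.2%), with a median of 52.4% over all windows. These matches are letters in a window and do not show that a factor binds there.

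For the order of the 9 genes given here, levels were divided by exon length, as RPKM over the 7 libraries other than TO 1. Tie1 (44.2 ± 7.29 RPKM, SD, n = 7) and Kdr (39.3 ± 6.39) were the most abundant of the 9. The ranges of Kdr and of the next gene, Nrp1 (24.5 ± 3.95), narrowly did not overlap, with a lowest Kdr of 31.32 and a highest Nrp1 of 31.15 RPKM. The highest value of Vegfb, 31.69 RPKM, was above the lowest of Kdr. Below Nrp1 came Vegfb (23.7 ± 5.26), Tek (22.1 ± 3.09), Nrp2 (14.5 ± 3.45), Angpt1 (10.9 ± 1.99), Flt1 (8.46 ± 2.27) and Angpt2 (5.18 ± 1.41). The ranges of each other neighbouring pair in this order overlapped. Within a library the order was steadier for some pairs than others, with Tie1 above Kdr in 5 of the 7 libraries, Nrp1 above Vegfb in 3, and Flt1 above Angpt2 in all 7. The 7 libraries spread least for Tek, from 18.3 to 25.3 RPKM (1.39-fold), and most for Angpt2, from 3.57 to 7.53 RPKM (2.11-fold).

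**Figure D1:**
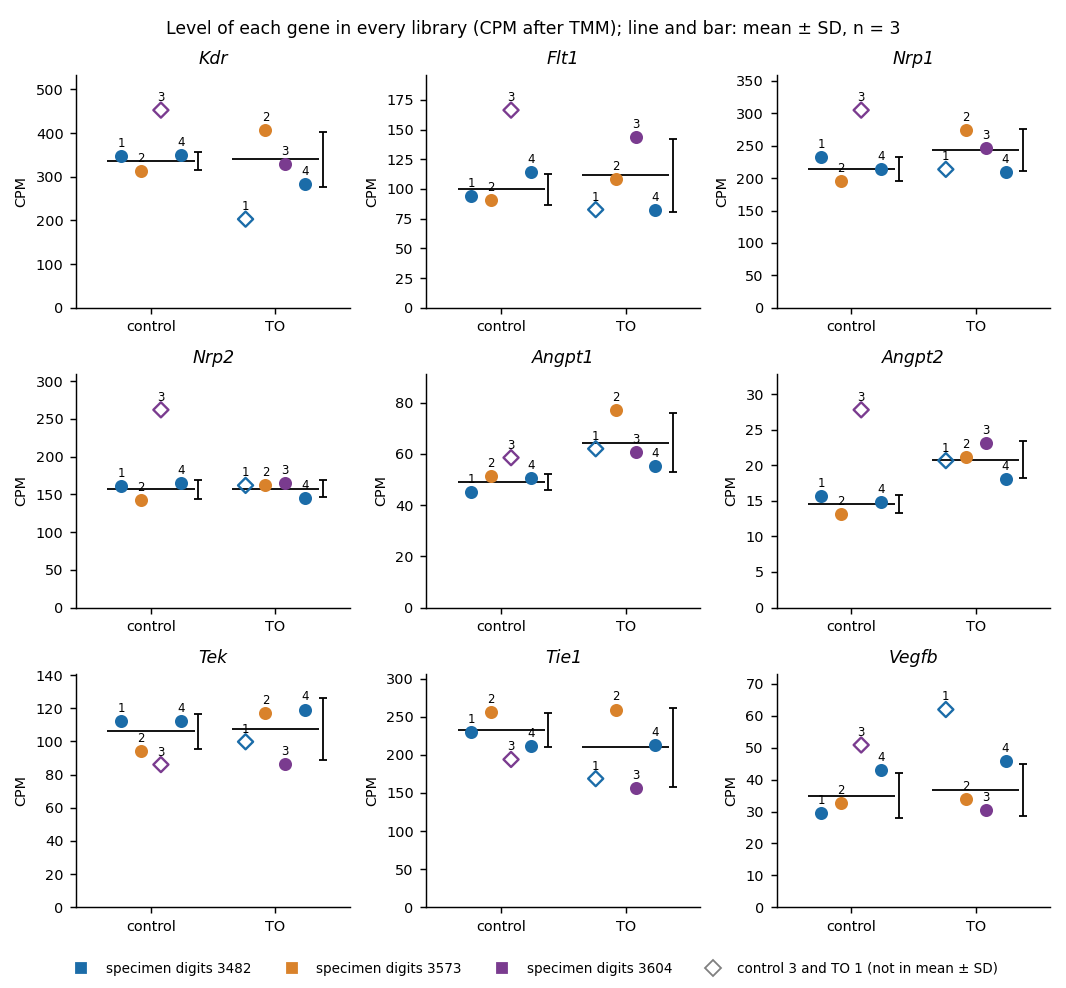
Level of each of the 9 genes in every library, in CPM after TMM scaling (y axis, from 0), for control and TO lungs (x axis), with the replicate number above each point and colour for the last 4 digits of the specimen name. The line and bar give the mean and SD of the 3 filled points of a group, and open diamonds are control 3 and TO 1. Angpt1 and Angpt2 are the 2 genes whose filled points do not overlap between groups, and the open point of control 3 lies above all other libraries for Kdr, Flt1, Nrp1, Nrp2 and Angpt2.

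The angiopoietins were the members with the largest differences. Angpt1 stood at 45.2, 51.2, 58.5 and 50.6 CPM in controls 1 to 4 and at 62.0, 77.2, 60.7 and 55.1 CPM in TO 1 to 4. Every TO library was above controls 1, 2 and 4, and control 3 was above TO 4, so the groups were separate in the 6 libraries and overlapped in all 8. The group means were 49.0 ± 3.31 CPM in control and 64.3 ± 11.5 CPM in TO (SD, n = 3). The difference was 0.39 on the log2 scale (SE 0.14), a fold of 1.31 with a 95% interval of 1.045 to 1.643. Its unadjusted p was 0.0243 and its adjusted p over all genes 0.907 in edgeR's test. Without TO 2, its highest library, the difference was 0.24 (SE 0.13, unadjusted p 0.108), more than 1.5 times smaller, and without any other single library it was 0.34 to 0.50 (unadjusted p 0.0078 to 0.0864). Within pairs of the same replicate number TO was higher in 4 of 4, by 0.455, 0.59, 0.054 and 0.123 on the log2 scale for numbers 1 to 4. The value of TO 1 in number 1 rests on 18 read pairs, and the sample titles do not say that the numbers pair lungs. In all 8 libraries the difference was 0.32 (SE 0.15), with an unadjusted p of 0.0567 and an adjusted p of 1.

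Angpt2 was at 15.6, 13.2, 27.8 and 14.8 CPM in controls 1 to 4 and at 20.7, 21.2, 23.2 and 18.1 CPM in TO 1 to 4. Controls 1, 2 and 4 lay below every TO library, whereas control 3 lay above all of them. The means of the 6 libraries were 14.5 ± 1.24 CPM in control and 20.8 ± 2.58 CPM in TO (SD, n = 3). The difference was 0.51 on the log2 scale (SE 0.16), a fold of 1.43 with a 95% interval of 1.107 to 1.844, with an unadjusted p of 0.0115 and an adjusted p of 0.907. TO was higher in 3 of 4 pairs of the same number, by 0.4, 0.683 and 0.288, and in number 3 the difference was -0.263. The 0.4 of number 1 rests on 6 read pairs in TO 1. With control 3 added the difference was 0.22 in both the fit of 7 and that of all 8 libraries (in the latter SE 0.25, unadjusted p 0.395, adjusted p 1). The size of the Angpt2 difference thus changed by more than 1.5 times with 1 control library.

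These 2 genes were the 2 of 9 with an unadjusted p under 0.05, beside 5.14% of all genes tested (3.07% higher and 2.07% lower in TO). With all 8 libraries 0 of 9 had such a p, beside 2.35% of all genes. They were also the 2 of 9 whose groups did not overlap in the 6 libraries, beside 10.9% of all genes (5.09% higher in TO). In the 7 and in the 8 libraries 0 of 9 were separate, beside 3.96% and 2% of all genes. Of the 9 genes 8 had a log2 fold change above 0 in the 6 libraries, beside 49.3% of all genes, and their median was 0.073 beside -0.0045. Several of the 8 were close to 0 and changed sign with the libraries used.

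Counts for Angpt1 carry a limit of their own. A gene on the opposite strand, Gm17473, overlaps 14.16% of its exon bases, and the libraries do not keep strand (49.9% to 50.1% of pairs on the first strand), so pairs over the shared bases were left out of the counts used here. In the 7 deep libraries the 2 strand columns together held 12.3% to 17% more pairs for Angpt1. Gm17473 itself had 0 to 14 read pairs. With either strand column alone the difference was 0.42 and 0.36, and both unadjusted p were under 0.05 (0.018 and 0.0342, adjusted p 0.892 and 0.888). Angpt2 had no such overlap, and its 2 strand columns summed to the same counts.

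Kdr, the main signalling receptor, gave no detectable difference. It was at 347, 313, 453 and 350.1 CPM in controls 1 to 4 and at 203, 407, 329 and 283 CPM in TO 1 to 4. The groups overlapped, TO 2 being above controls 1, 2 and 4 and TO 4 below them. The means were 337 ± 20.5 CPM in control and 340 ± 62.8 CPM in TO (SD, n = 3), and the log2 fold change was 0.0094 (SE 0.14, adjusted p 0.996), with a 95% interval of the fold from 0.809 to 1.25. The TO libraries spread more widely than the controls in these 6. In pairs of the same number TO was lower in 3 of 4 (differences of -0.773, -0.459 and -0.308) and higher in number 2 (0.378). The -0.773 of number 1 rests on 59 read pairs in TO 1. With all 8 libraries the log2 fold change was -0.24 (SE 0.20, unadjusted p 0.251).

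Flt1, the decoy-like receptor, was at 94.5, 90.3, 166 and 114 CPM in controls 1 to 4 and at 82.6, 109, 144 and 82.1 CPM in TO 1 to 4. Controls and TO overlapped, and the highest value of each group came from the specimen ending in 3604. The log2 fold change was 0.16 (SE 0.19, adjusted p 0.954) in the 6 libraries and -0.13 in all 8. Without TO 3 the 6-library value was -0.054. The fold had a 95% interval of 0.826 to 1.5, so a change of either sign within these bounds was not detectable. Reads of whole genes do not separate the membrane and soluble forms of Flt1.

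Of the coreceptors, Nrp1 was at 233, 196, 305 and 214 CPM in controls 1 to 4 and at 214, 274, 246 and 209 CPM in TO 1 to 4. Its log2 fold change was 0.18 (SE 0.13, unadjusted p 0.189, adjusted p 0.909) and shrank to 0.00015 with all 8 libraries. Nrp2 was at 161, 143, 262 and 165 CPM in controls 1 to 4 and at 162, 162, 165 and 145 CPM in TO 1 to 4. Apart from control 3 its values were close together, with a log2 fold change of 0.0046 (SE 0.11, adjusted p 0.998) and a 95% interval of the fold from 0.847 to 1.19. With all 8 libraries it was -0.21.

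Neither Tie receptor passed the test, and both had low values in the libraries numbered 3. Tek was at 112, 94.1, 86.1 and 112 CPM in controls 1 to 4 and at 99.8, 117, 86.3 and 119 CPM in TO 1 to 4. The number 3 library was the lowest of each group, and these 2 were almost equal, with a difference of 0.003 on the log2 scale. Its log2 fold change was 0.018 (SE 0.15, adjusted p 0.993), with a 95% interval of the fold from 0.799 to 1.28. Tie1 was at 230, 256, 194 and 211 CPM in controls 1 to 4 and at 169, 259, 157 and 213 CPM in TO 1 to 4. In the 6 libraries it was the only member below 0, at -0.15 (SE 0.18, adjusted p 0.952), and it was 0.037 without TO 3. Vegfb, a ligand of Flt1 and Nrp1, was at 29.4, 32.5, 50.9 and 42.9 CPM in controls 1 to 4 and at 62.0, 34.0, 30.5 and 45.8 CPM in TO 1 to 4, and its log2 fold change was 0.073 (SE 0.20, adjusted p 0.981). The 62.0 CPM of TO 1 rest on 18 read pairs.

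**Figure D2:**
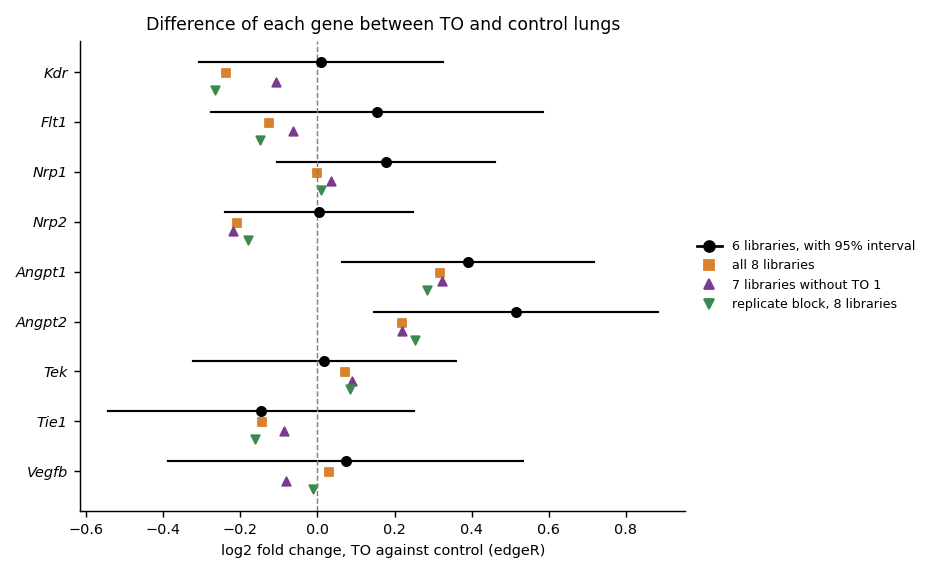
Log2 fold change of TO against control (x axis) for the 9 genes (y axis). Black points and lines give edgeR's estimate and 95% interval in the 6 libraries, and coloured points the estimates with all 8 libraries, with 7 libraries and with replicate number as a block over all 8. Angpt1 (0.39) and Angpt2 (0.51) have intervals that leave out 0, and the estimates for Kdr, Flt1 and Nrp2 lie below 0 in the 3 other fits.

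Ratios within a library, which do not depend on its scaling, were compared by exact two-sided permutation tests, for which the smallest p with 3 against 3 is 0.1. They were taken from CPM without division by exon length. Their values thus compare libraries and do not give the relative level of the genes in a pair. The ratio of Angpt2 to Angpt1, often read as a balance of Tek ligands, was 0.347, 0.259, 0.476 and 0.293 in controls 1 to 4 and 0.334, 0.276, 0.382 and 0.329 in TO 1 to 4. The groups overlapped, with a log2 difference of 0.13 (exact p 0.5, adjusted over the 4 ratios 0.667), and it was -0.028 with all 8 libraries (exact p 0.914). The ratio of Flt1 to Kdr differed by 0.13 (exact p 0.8), with both specimens ending in 3604 (0.368 in control 3 and 0.436 in TO 3) above the other 5 deep libraries. Tie1 to Tek differed by -0.18 (exact p 0.5). Nrp2 to Nrp1 was 0.692, 0.728 and 0.773 in controls 1, 2 and 4 and 0.592, 0.672 and 0.691 in TO 2, 3 and 4. These 2 groups did not overlap, with a log2 difference of -0.17 at the smallest possible exact p of 0.1 (adjusted p 0.4). In all 8 libraries the difference was again -0.17 (exact p 0.143), with control 3 at 0.86 and TO 1 at 0.758.

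Each member was also set against the endothelial content of its library, as log2 CPM minus the mean log2 CPM of 16 endothelial markers. In bulk lung, fewer cells of a type and less RNA per cell cannot be told apart. Of the 16 markers 4 were higher and 12 lower in TO, none at an unadjusted p under 0.05, with a median log2 fold change of -0.072. Their summed level was 2118 to 2374 CPM in the 3 controls and 1819 to 2590 CPM in the 3 TO lungs. Cdh5 was the most abundant, and the list was highest in TO 2 and lowest in TO 1.

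Relative to these markers Angpt1 was 0.48 higher in TO (exact p 0.1, the smallest possible, adjusted over the 9 genes 0.45). With all 8 libraries it was 0.55 higher with no overlap (exact p 0.0286, the smallest possible with 4 against 4, adjusted p 0.257). In CPM the groups of Angpt1 did overlap in these libraries. How many of all genes are separate when set against these markers was not counted. The difference also holds the level of the markers themselves, which was lowest in TO 1, where Angpt1 had 18 read pairs. In the 7 libraries without TO 1 it was 0.43 (exact p 0.0286, the smallest possible there, not adjusted). Angpt2 was 0.61 higher (exact p 0.1, adjusted p 0.45) and, with all 8, 0.52 higher (exact p 0.143). The other 7 members differed by -0.077 to 0.27 with exact p of 0.3 to 0.7. The 10 pericyte markers, of a cell that makes Angpt1, split 6 higher and 4 lower, with a median of 0.017 and summed levels of 1026 to 1225 CPM in the 3 controls and 1104 to 1281 CPM in the 3 TO lungs. At an unadjusted p under 0.05 there was 1, Cox4i2, lower in TO (-0.36, p 0.0459) and named after its value was seen. Of all genes 2.07% were lower at such a p. Among them Mcam, also an endothelial adhesion molecule, was the most abundant, and the list was highest in control 3 and lowest in TO 1.

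**Figure D3:**
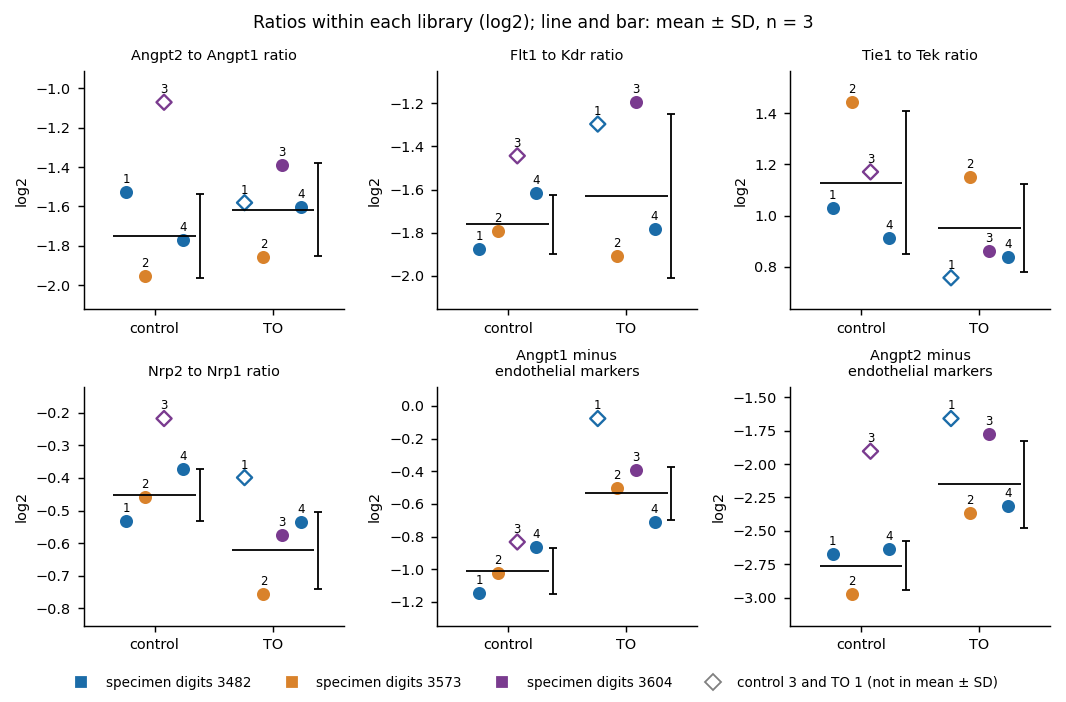
Log2 ratios within each library (y axes) for 4 pairs of genes and for Angpt1 and Angpt2 against the mean of 16 endothelial markers, in control and TO lungs (x axes), with replicate numbers above the points and colour for the last 4 digits of the specimen name. Lines and bars are the mean and SD of the 3 filled points, open diamonds are control 3 and TO 1, and y axes do not start at 0. All 4 TO points for Angpt1 against endothelial markers lie above all 4 controls, whereas the CPM of Angpt1 overlapped between these groups.

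Several members sorted by the specimen digits across both groups. Both lungs ending in 3604 were above the other 5 deep libraries for Flt1 (mean 155 against 98.0 CPM) and Angpt2 (25.5 against 16.6 CPM). Both were below the other 5 for Tek (86.2 against 111 CPM) and Tie1 (175 against 234 CPM). This made 4 of 9 members on one side, beside 25.4% of all genes (11.6% above and 13.8% below). Control 3 alone was the highest of the 7 for 6 of 9 members, Kdr, Flt1, Nrp1, Nrp2, Angpt2 and Vegfb, beside 20.8% of all genes. The same 2 lungs had the least RNA of dividing cells among the 7, with means of 4.95 log2 CPM in control 3 and 4.91 in TO 3 over 8 markers against 5.99 to 6.98 in the others, and its part in the levels of the members was not tested. With 1 control and 1 TO lung ending in 3604, and of these only TO 3 among the 6 libraries used first, the digits are not balanced between the groups there.

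**Figure D4:**
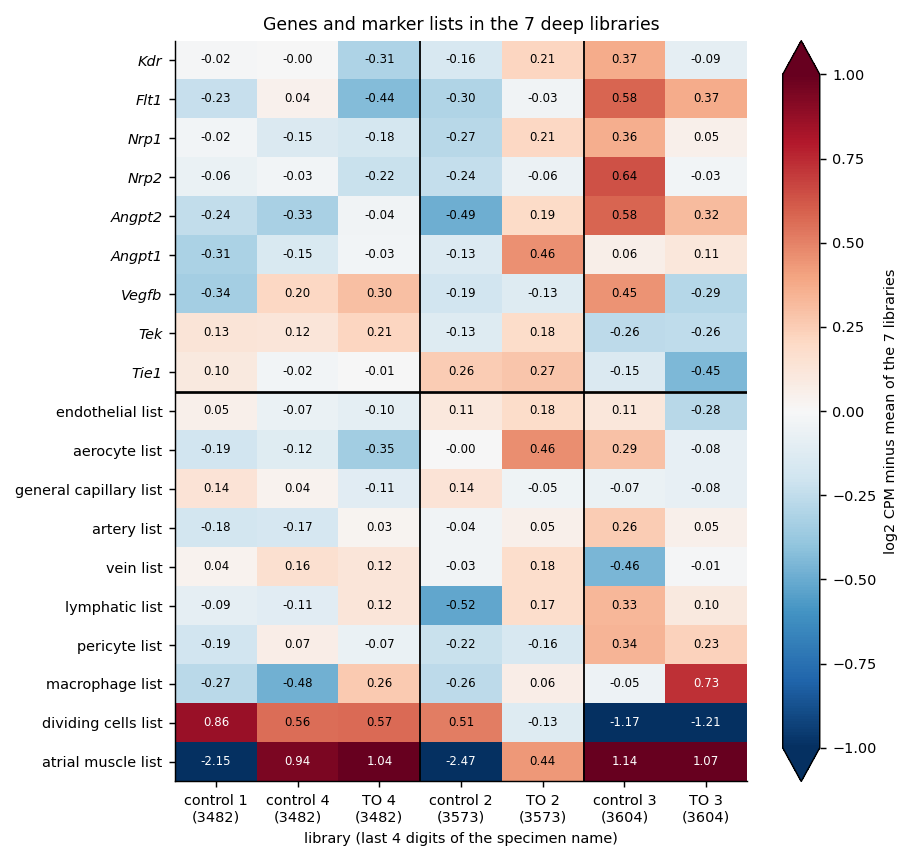
Log2 CPM minus the mean of the 7 deep libraries (colour and printed value) for the 9 genes and for the mean of 10 marker lists (y axis), in libraries ordered by the last 4 digits of the specimen name (x axis). In the columns of 3604, Flt1 and Angpt2 are above and Tek and Tie1 below their means, and the list of dividing cells is at -1.17 and -1.21, beyond the end of the colour scale at -1.

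Over the 7 deep libraries, which share these specimen differences, the levels of the VEGF receptors were positively correlated. Pearson's r of log2 CPM was 0.715 between Kdr and Flt1, 0.886 between Kdr and Nrp1, 0.826 between Kdr and Nrp2 and 0.822 between Nrp1 and Nrp2. Angpt2 went with Nrp1 (0.888) and Flt1 (0.775) more than with Angpt1 (0.617). Tek and Tie1 had an r of 0.571 with each other and of -0.718 and -0.648 with Flt1. These are descriptions over 7 points. Among 16912 genes with at least 5 reads in all 7, those most like Kdr were Gm36377 (r 0.98), Rundc1 (0.978), Kbtbd2 (0.976) and Tor4a (0.973). Those most like Tek were Hhipl1 (0.988), Ispd (0.981), Metap2 (0.98) and Matn2 (0.977), and those most like Angpt2 were Nol8 (0.99), Pon1 (0.989), Pcyt1a (0.987) and Avl9 (0.985). An r above 0.9 was reached by 95 genes for Kdr, 89 for Tek and 249 for Angpt2, so such likeness was common.

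Other genes of the same pathways were taken from 4 lists with 33 entries. None passed the adjusted p of 0.1 (the background is 0% of all genes in this fit), 15 had a log2 fold change above 0 and 18 below, and the median was -0.021. At an unadjusted p under 0.05 there were 1 higher and 3 lower, beside 3.07% and 2.07% of all genes.

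Of 5 further ligands 3 were higher and 2 lower in TO. Vegfd, a lymphatic growth factor also abundant in lung mesenchyme, was at 134, 167, 83.7 and 94.6 CPM in controls 1 to 4 and 55.1, 122, 68.4 and 108 CPM in TO 1 to 4 (log2 fold change -0.40, SE 0.24, unadjusted p 0.132). Pgf, which binds Flt1, was low throughout, at 2.79 to 4.84 CPM in the controls and 1.68 to 3.92 CPM in the 3 deep TO libraries (-0.78, SE 0.36, unadjusted p 0.0575).

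Among 14 other receptors, neuropilin partners and semaphorins, 5 were higher and 9 lower. Sema3e, a semaphorin that acts on the vessel receptor Plxnd1, was at 118, 79.9, 86.7 and 105 CPM in controls 1 to 4 and at 55.1, 61.2, 67.7 and 73.0 CPM in TO 1 to 4. All TO libraries were below all controls, beside 2% of all genes with separate groups in the 8 libraries. The log2 fold change was -0.58 (SE 0.16, unadjusted p 0.0045, adjusted p 0.907), and Sema3e is named for the smallest unadjusted p of its list. Plxna3, a neuropilin partner, was at 37.4, 39.5 and 40.6 CPM in controls 1, 2 and 4 and at 28.1, 27.8 and 29.9 CPM in TO 2, 3 and 4 (-0.46, SE 0.12, unadjusted p 0.0049), while control 3 was at 19.1 CPM, below those 3 TO libraries. Plxna4, also a neuropilin partner and named here after its values were seen, was the 1 gene on the higher side (0.49, SE 0.18, unadjusted p 0.0235). Plxnd1 (410 to 471 CPM in the controls, 383 to 432 CPM in TO) and Plxna2 (135 to 159.5 and 107 to 144 CPM) were the most abundant, with log2 fold changes of -0.11 and -0.096 and unadjusted p of 0.331 and 0.347.

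Of 5 genes acting on or after the Tie receptors 1 was higher and 4 lower. Svep1, an extracellular matrix protein that binds Tie1, was at 204, 202, 249 and 227 CPM in controls 1 to 4 and at 148, 180.1, 166 and 185 CPM in TO 1 to 4. It was lower in all 4 TO libraries than in all 4 controls, beside 2% of all genes with separate groups in the 8 libraries. The log2 fold change was -0.26 (SE 0.11, unadjusted p 0.0394, adjusted p 0.907), the smallest unadjusted p of its list. Ptprb, the endothelial phosphatase that acts on Tek, differed by -0.011 (SE 0.11) and Tnip2, a binding partner of Tek that restrains NF-kappa B, by 0.32 (SE 0.25, unadjusted p 0.23).

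Of 9 genes that act after VEGF receptors or are induced by VEGF, 6 were higher and 3 lower, none at an unadjusted p under 0.05. Plcg1, the phospholipase recruited to Kdr, was the most abundant at 152 to 195 CPM over all 8 libraries (0.041, SE 0.11). Aplnr, the apelin receptor of capillary and venous cells, measured 38.1 CPM in control 3, 38.7 CPM in TO 3 and 107 to 173 CPM in the other 6 (-0.55, SE 0.38, unadjusted p 0.186). Esm1, a gene of endothelial tip cells, measured 7.63 CPM in control 3, 14.4 CPM in TO 3 and 1.5 to 2.76 CPM in the other deep libraries (1.43, SE 0.81, unadjusted p 0.11). Both genes again set the specimens ending in 3604 apart in each group. Sh2d2a, an adaptor of Kdr, was at or below 0.578 CPM in the deep libraries.

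Markers of other cells moved with the groups or specimens beside these results. Of all genes 3.07% were higher in TO at an unadjusted p under 0.05. Macrophage markers were higher in TO for 6 of 6, 5 at an unadjusted p under 0.05, with sums of 188 to 253 CPM in the 3 controls and 267 to 412 CPM in the 3 TO lungs, so they separated the same 6 libraries as Angpt1 and Angpt2 did, and control 3 was at 302 CPM. The most abundant was Lyz2, and the list was highest in TO 3 and lowest in control 4. Of 5 megakaryocyte markers, of a cell that carries Angpt1 in its platelets, 4 were tested and were higher, 1 at an unadjusted p under 0.05, with sums of 16.9 to 20.5 and 24.7 to 27.7 CPM. The gene with such a p was Pf4 (log2 fold change 0.96). Itga2b led and was at 0.14 (unadjusted p 0.548) with overlapping groups. The rest of the list was at or below 2.07 CPM, and Gp1bb was at 0 in every library. Lymphatic markers, of a vessel type that carries Nrp2 and responds to Angpt2, were higher for 5 of 6, 3 at an unadjusted p under 0.05 (Prox1, Reln and Mmrn1), with sums of 219 to 258 and 255 to 332 CPM. The part of none of these in the angiopoietin differences was tested.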

How the data were processed

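The authors prepared NexteraXT libraries from whole mouse lung RNA, sequenced them as read pairs and aligned these to GRCm38 (mm10) with STAR. The submitters' processing notes also name DESeq2, and the STAR version and the annotation are not given in the sources used here. For each of 8 libraries the authors deposited raw gene counts (read pairs), unfiltered and not normalized, in 1 column that ignores strand and 1 per strand. The summary rows of unmapped, multiply mapped, unassigned and ambiguous pairs (3.31% to 3.82%, 3.76% to 4.28%, 9.64% to 14.9% and 5.00% to 5.74% of pairs) were left out of library sizes and tests. Of 55385 gene IDs 55144 matched GENCODE M21 without their version, and symbols, coordinates and exon lengths came from that release. Promoter sequence came from RefSeq (GRCm38.p6).

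Groups and replicate numbers came from the sample titles. A gene was tested if 3 or more of the 6 libraries had at least 5 reads of it, with the quasi-likelihood test of edgeR 4.0.16 (R 4.3.3) and TMM factors. P-values were adjusted over all genes by Benjamini-Hochberg, with a threshold of 0.1. CPM and RPKM used TMM factors of all 8 libraries, and log2 values a prior count of 2. Ratios and values relative to endothelial markers were compared by exact permutation tests (NumPy 2.4.6). Nothing states that the lungs came from separate dams, so p-values measure the spread between these libraries. Without molecular identifiers, counting covers only part of a value's error, and no counting interval is given.

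The members and lists were chosen with earlier results of these data known. All 9 members are named, and of each pathway list the 2 most abundant genes, the 2 with the smallest unadjusted p and any gene called, of each marker list the most abundant gene with its highest and lowest library, and the 4 genes most like Kdr, Tek and Angpt2. Plxna4 and single marker genes with an unadjusted p under 0.05 (Prox1, Reln, Mmrn1, Cox4i2, Plvap, Bmx, Bub1, Pf4 and Epcam) were named after their values were seen. Abundance within these lists was ranked by mean CPM in the 6 libraries, without division by exon length. The naming rule also picks 1 gene that is left unreported here, though the list counts include it.

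Over 9335 genes, deviations from the group mean in libraries of the same replicate number correlated at 0.207, 0.34, 0.489 and 0.339 for numbers 1 to 4. A fit with the number as a block was an alternative, and the first test held no block. Whether the numbers pair lungs is not known. Libraries of the same number also share their specimen digits. Within the digits 3482 the numbered pairs did not stand apart, since control 4 with TO 1 reached 0.332 and control 1 with TO 4 0.147, and pairs of different digits were at -0.445 to 0.00391. Other alternatives were DESeq2 1.42.0, limma-voom (limma 3.58.1), other scaling and filters, single strand columns, 7 and 8 libraries, blocks by specimen digits, a prior count of 0.5 and leaving out each library. DESeq2 with 7 or 8 libraries and the block by specimen digits with 7 were added after seeing the data, as was the count of genes set apart by the specimens ending in 3604. In simulated data with a log2 fold change of 2 in 200 genes, edgeR called 130 of them (65%) and 26 unchanged genes in the 6-library design (20645 genes), and 114 (57%) and 20 in the 8-library design (21026 genes). In both designs the unchanged genes were a larger share of those called than the threshold of 0.1. The largest difference of a member was 0.51, so these shares do not tell how often such a difference would be called. The simulated libraries held no specimen differences.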

Additional observations from a re-analysis of the deposited data

Results flagged for a closer look

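Of 26 groups of 4 libraries examined (the 9 genes, 4 ratios, each in control and TO), 2 held a library whose distance to its neighbour was large for the group's range, and chance alone gives about 1 in 20. Angpt2 in control 3, at 27.8 CPM, was far above the other controls (13.2 to 15.6 CPM), the gap being 0.833 of the range against a critical value of 0.829. Nrp2 in TO 4, at 144.5 CPM, was below the other TO libraries (161.8 to 165.1 CPM), the gap being 0.842 of a narrow range.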

How the results depend on the processing

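In 23 alternatives no member reached an adjusted p of 0.1, the lowest being 0.239 (Angpt2) and 0.243 (Angpt1), both without TO 4, and a block by replicate number changed no member's call. Angpt1 (0.24, without TO 2, to 0.50), Angpt2 (0.22 to 0.61) and Nrp1 (0.00015 to 0.28) stayed above 0 in all 23. Genes called numbered 44 with DESeq2, 40 with any gene holding a read, 219 and 3 with the replicate block in 6 and 8 libraries, 1 with the block by specimen digits in 7, 7 with DESeq2 in 7 or 8 libraries, and 0 to 144 with single libraries left out. Directions that turned are given as log2 fold changes. Kdr was -0.24 and -0.11, Flt1 -0.13 and -0.063, and Nrp2 -0.21 and -0.22 with 8 and 7 libraries, with Vegfb -0.082 in 7. Kdr was -0.22 and -0.11, Flt1 -0.12 and -0.065, and Nrp2 -0.20 and -0.22 with DESeq2 in 8 and 7, with Vegfb -0.083 in 7. With the replicate block in 8 libraries Kdr was -0.27, Flt1 -0.15, Nrp2 -0.18 and Vegfb -0.010, and in 6 Flt1 was -0.10, Nrp2 -0.0024 and Tie1 0.020. With the block by specimen digits in 8, 7 and 6 libraries Flt1 was -0.14, -0.12 and -0.073 and Nrp2 -0.18, -0.21 and -0.013, and in 8 and 7 Kdr was -0.25 and -0.14, with Vegfb -0.055 in 7. Kdr was -0.0017 with limma-voom and -0.0096 on the first strand, and Tek -0.037 on the second. With single libraries left out Kdr ran from -0.14 to 0.13, Flt1 ran from -0.054 to 0.34, Nrp2 ran from -0.053 to 0.067, Tek ran from -0.060 to 0.17, Tie1 ran from -0.32 to 0.037 and Vegfb from -0.11 to 0.25. The Angpt2 to Angpt1 ratio was -0.028 in 8 libraries, the same with the replicate block, and -0.056 with the block by digits, and relative to endothelial markers Kdr was -0.050 and Tie1 0.060 in 8 libraries, the same with the replicate block, and Tie1 0.045 with the block by digits, while Angpt1 reached 0.55. With single libraries left out the Flt1 to Kdr ratio ran from -0.083 to 0.27, and relative to endothelial markers Flt1 from -0.082 to 0.41, Nrp2 from -0.040 to 0.20, Tek from -0.020 to 0.19, Tie1 from -0.12 to 0.012 and Vegfb from -0.022 to 0.37. The cause of these shifts was not tested beyond the libraries used. In TO 1 the values of Angpt2, Angpt1 and Vegfb rest on 6 to 18 read pairs, which limits what adding it can show.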

Other observations

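Markers of the vessel compartments that carry these receptors gave no called gene. For the counts below, 3.07% of all genes were higher and 2.07% lower in TO at an unadjusted p under 0.05. Of 6 aerocyte (Car4-high capillary) markers 4 were higher in TO and 2 lower (median log2 fold change 0.15), with sums of 931 to 1048 CPM in the 3 controls and 772 to 1078 CPM in the 3 TO lungs. Tbx2, more broadly a mesenchymal factor, was the most abundant of them, and the list was highest in TO 2 and lowest in TO 1. General capillary markers were 3 higher and 2 lower, with a median of 0.0030 and sums of 663 to 755 and 579 to 665 CPM. At an unadjusted p under 0.05 there was 1, Plvap, lower in TO (-0.35, p 0.0131). Its groups did not overlap in the 6 libraries, beside 10.9% of all genes. Cd93 led them, control 1 was highest and TO 1 lowest. Arterial markers were 3 higher and 4 lower (median -0.052, led by Efnb2, highest in control 3 and lowest in TO 1), with Bmx higher at an unadjusted p of 0.0376 (0.78), and venous markers 1 higher and 3 lower (median -0.038, led by Ephb4, highest in TO 2 and lowest in control 3). The lymphatic list, led by Lyve1, was highest in control 3 and lowest in control 2, with a median of 0.44. No aerocyte, venous or neural marker had an unadjusted p under 0.05. The megakaryocyte list, in which Pf4 was the gene with such a p (0.96, p 0.0056), was highest in TO 4 and lowest in TO 1.

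Of 8 markers of dividing cells all were lower in TO, 1 at an unadjusted p under 0.05 (Bub1, -0.77, p 0.0338), with a median of -0.74. Mki67 led them, and the list was highest in control 1 and lowest in TO 3. Its mean was 6.98, 6.63 and 6.68 log2 CPM in controls 1, 2 and 4 and 5.99, 4.91 and 6.69 in TO 2, 3 and 4. The groups thus overlapped, TO 4 being above controls 2 and 4, and control 3 was at 4.95. Atrial heart muscle markers were higher for 7 of 7 and ventricular ones for 3 of 3, none at an unadjusted p under 0.05. Myh6 and Myh7 led them, and the atrial sum was 416 to 3533 CPM in the 3 controls and 2306 to 4372 CPM in the 3 TO lungs. The ventricular sum was 76.4, 107 and 840 CPM in controls 1, 2 and 4 and 137, 175 and 2262 CPM in TO 2, 3 and 4. Both sums thus overlapped between the groups, control 4 being above TO 2 and TO 3 in each. Both lists were highest in TO 1, the atrial one lowest in control 2 and the ventricular one in control 1. Neural markers were 4 higher and 2 lower, led by Prph, highest in control 4 and lowest in control 2. Lung epithelial markers were 4 higher and 4 lower, with Epcam lower at an unadjusted p of 0.0107 (-0.55), led by Sftpc, highest in TO 2 and lowest in TO 1.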
